A study of Mus musculus with 104 samples.

Results

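The 33 activity-regulated genes described here were taken by symbol from the RefSeq gene counts of mouse cerebral cortex. All 33 were found among the 24060 gene rows, and all 33 passed the filter on low counts that 15723 genes passed. They were Fos, Fosb, Fosl2, Junb and Jun (AP-1 factors), Egr1, Egr2, Egr3 and Egr4, Npas4 with Nr4a1, Nr4a2 and Nr4a3, and the early regulators Ier2, Ier5, Btg2, Klf2 and Klf4. The others were the feedback regulators Dusp1, Dusp4, Dusp5, Dusp6, Sik1, Trib1, Plk2, Gadd45b and Gadd45g and the secreted and synaptic effectors Arc, Homer1, Bdnf, Nptx2, Inhba and Ptgs2. Cortex was dissected from wild-type C57BL/6 mice aged 6 months, and libraries were made with the stranded TruSeq protocol. The libraries came from 52 females and 52 males, 1 mouse each, of 13 lines with 4 females and 4 males a line. The lines are Tbc1d8, Gsg1l, Zswim6, Rgs9, Rasgef1a, Ppp1ca, Pcdh20, Morf4l1, Kdm3b, Hrk, Ece2, Dach1 and Arpp19. All animals are labelled wild type, and the line name is given as the name of a group, with no allele stated for these mice. The labels tag that group as a batch, so line and batch cannot be told apart.

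Immediate early genes are transcribed within minutes of synaptic activity, from promoters that are held ready by CREB, SRF and their cofactors and that need no new protein. The transcription factors of the first wave (FOS and JUN proteins, EGR proteins, NPAS4 and the NR4A receptors) bind the enhancers and promoters of later genes, whose products act at synapses or are secreted. ARC drives removal of AMPA receptors from synapses, HOMER1 organises metabotropic glutamate receptors, BDNF is a neurotrophin, and NPTX2 is a pentraxin that gathers AMPA receptors on interneurons. DUSP1, DUSP4, DUSP5 and DUSP6 remove phosphate from MAP kinases and so close the signal that induced them. In cortex, transcripts of this family are read out mostly from neurons and change with sensory input, sleep and handling.

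Totals ran from 23.9 M to 33.5 M counted reads a library, apart from Kdm3b female replicate 22 with 3.39 M, and the median was 28.2 M in females and 28.8 M in males. In 3 libraries the sex-linked transcripts went against the labelled sex, and results that turn on them are given without them too. Rasgef1a male replicate 40 had 0 reads of Y-linked genes and 32425 of Xist, and Rgs9 female replicate 43 had 4479 and 3. Rasgef1a female replicate 39 had 0 and 2, too little Xist for its label but without Y-linked reads, so its sex is not settled. The label of cortex was matched by 6 markers of excitatory neurons, whose summed level was 6459 to 7518 CPM, the count scaled to the library total, in females and 6585 to 7841 CPM in males, and 5 tested choroid plexus markers summed to under 5.75 CPM in every female, with up to 309.6 CPM in 1 male. Of all libraries, 8 were on plate 2 and 96 on plate 1. The design gives 8 mice a line, so each library is taken as 1 mouse, and the most alike of 156 pairs of the same line and sex still differed by more than counting noise (chi-square per degree of freedom 2.49).

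Promoter sequence was taken for 25 of the 33 genes, in 36 windows of the 250 bases before an annotated start (RefSeq, GRCm38.p6). The letters TGACG, the core of the cAMP response element (CRE) bound by CREB, were found on either strand in 19 of the 36 windows (52.8%) and in 17.8% of 32851 such windows of all genes. The full element TGACGTCA stood in 3 windows (8.33%), those of Btg2, Dusp1 and Plk2, against 1.55% of all windows, and each full element contains the core on both strands. The CArG box bound by SRF was in 5 windows (13.9%) against 1.47%, but 4 of the 5 belong to Egr2 and 3 of those overlap, so by gene it was in 2 of 25 (Dusp5 and Egr2, 8.0%) against 1.62% of 27025 genes. By gene the core stood in 17 of 25 (68.0%) against 19.8%. There was an AP-1 site TGANTCA in 1 window (2.78%, Bdnf) against 6.75%, and an EGR site GCGTGGGCG in 0 against 0.536%. The windows below are those of Fos and of 3 genes that followed it most closely between mice (Junb, Nr4a1 and Dusp1). The others are those of the 2 genes called between lines, Npas4 and Btg2, where the call of Btg2 did not hold in every fit. Each is written 5′ to 3′ on the strand of its gene, and capitals mark TGACG, its reverse complement CGTCA or the full element.
Fos (chr12:85473640-85473889, plus strand): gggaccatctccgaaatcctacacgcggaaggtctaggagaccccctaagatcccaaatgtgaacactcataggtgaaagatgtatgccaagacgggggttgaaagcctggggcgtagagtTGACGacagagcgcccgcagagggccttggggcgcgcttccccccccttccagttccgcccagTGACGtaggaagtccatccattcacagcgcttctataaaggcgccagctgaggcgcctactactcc
Junb (chr8:84978749-84978998, minus strand): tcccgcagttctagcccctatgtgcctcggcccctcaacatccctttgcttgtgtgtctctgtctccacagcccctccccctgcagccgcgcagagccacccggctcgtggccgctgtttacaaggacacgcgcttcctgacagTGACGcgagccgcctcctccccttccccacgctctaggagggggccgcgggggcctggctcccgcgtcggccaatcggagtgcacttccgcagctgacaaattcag
Nr4a1 (chr15:101266596-101266845, plus strand): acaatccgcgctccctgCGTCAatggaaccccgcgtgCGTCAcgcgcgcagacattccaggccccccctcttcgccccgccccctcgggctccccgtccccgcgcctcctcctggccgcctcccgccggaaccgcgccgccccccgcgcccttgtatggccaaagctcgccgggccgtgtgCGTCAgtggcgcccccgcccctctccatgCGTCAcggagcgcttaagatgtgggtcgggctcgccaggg
Dusp1 (chr17:26508473-26508722, minus strand): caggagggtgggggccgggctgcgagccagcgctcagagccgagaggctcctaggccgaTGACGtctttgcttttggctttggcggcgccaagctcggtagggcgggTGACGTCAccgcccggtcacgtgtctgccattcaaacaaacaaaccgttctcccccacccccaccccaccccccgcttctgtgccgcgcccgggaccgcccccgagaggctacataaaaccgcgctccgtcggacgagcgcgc
Npas4 (chr19:4989972-4990221, minus strand): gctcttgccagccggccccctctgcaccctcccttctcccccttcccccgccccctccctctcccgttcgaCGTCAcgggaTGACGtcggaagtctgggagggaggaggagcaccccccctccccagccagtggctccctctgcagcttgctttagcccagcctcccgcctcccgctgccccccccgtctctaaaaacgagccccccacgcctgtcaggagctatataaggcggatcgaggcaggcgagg
Btg2 (chr1:134079156-134079405, minus strand): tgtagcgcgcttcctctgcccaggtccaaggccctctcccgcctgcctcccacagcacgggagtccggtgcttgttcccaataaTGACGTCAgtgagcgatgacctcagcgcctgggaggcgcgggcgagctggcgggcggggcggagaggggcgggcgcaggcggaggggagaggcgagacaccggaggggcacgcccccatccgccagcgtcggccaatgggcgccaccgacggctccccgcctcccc
Nr4a1 carried 4 cores, Fos 2 and Junb 1, and those of Nr4a1 all read on the opposite strand. Dusp1 had a full element and a further core, Btg2 a full element, and Npas4 1 core on each strand. The windows of Nr4a1 and Npas4 lie before a start inside the annotated span of the gene (chr15:101253902-101274795 and chr19:4984353-5003439), so other starts of these genes exist. A match describes the letters and is not evidence of binding, and none of the counts of motifs was tested against the expression results.

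Levels differed widely between the genes. On the deposited FPKM scale, which divides by gene length, Egr1 was highest with a median of 260.3 FPKM over all libraries (118 to 382). Arc followed with 216 FPKM (57.2 to 365) and Nr4a1 with 101 FPKM (37.5 to 181). Egr1 was above Arc in 90 libraries and below it in the others, and Arc was above Nr4a1 in every library, so the first 3 places were kept in most libraries. Plk2, a kinase that weakens synapses after strong activity, had 76.6 FPKM and Egr3 had 75.4 FPKM, and Plk2 was above Egr3 in 52 libraries and below it in 52, so their order is not resolved. The next group had medians between 34.3 and 44.1 FPKM and held Junb (44.1), Dusp6 (43.6), Homer1 (37.4), Fos (35.7), Ier5 (35.3) and Dusp1 (34.3). Fos ranged from 9.34 to 81.0 FPKM and thus crossed all of these neighbours. Npas4, a factor found almost only in neurons, was at 11.7 FPKM (5.88 to 32.3). The lowest were Bdnf (5.69 FPKM), Ptgs2 (4.43 FPKM), Klf2 (4.27 FPKM), Inhba (3.41 FPKM) and Klf4 (2.53 FPKM, 1.06 to 5.51).

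**Figure D1:**
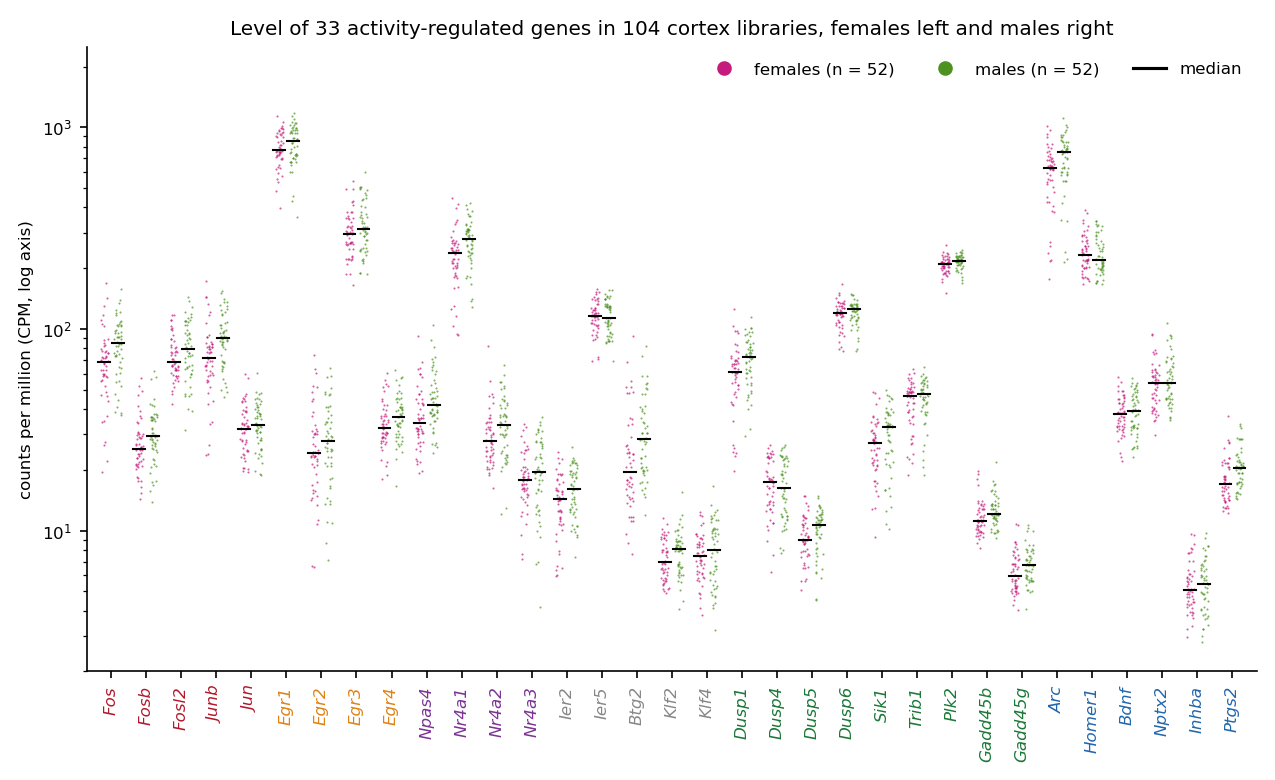
Level of each of the 33 genes in CPM on a log axis, 1 point a library, with females left and males right of each gene, a black bar at the median and gene names coloured by role. Egr1 and Arc stand at the top, Klf4 and Inhba near the bottom, and the points of Egr2, Btg2, Fos and Arc spread much further than those of Plk2 and Dusp6.

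These genes varied more between mice than most genes of the cortex. After line and sex were removed, the SD of log2 CPM had a median of 0.37 over the 33 genes and 0.11 over all tested genes, and 33 of 33 lay above the median of all genes. The widest were Egr2, a factor induced by strong activity (SD 0.66, highest library 11.2-fold above the lowest), and Btg2, an antiproliferative gene (SD 0.64, 12.2-fold). Nr4a3 (SD 0.52), Fos (SD 0.52, 8.63-fold) and Arc (SD 0.50) came next. Plk2 was the steadiest with SD 0.12 and 1.71-fold, beside Dusp6 with SD 0.20 and 2.16-fold. Between 64.3% (Npas4) and 87.5% (Ier5) of each gene's variance was left after line and sex, a share that includes any variation of the sex difference between lines. Line held 9.01% (Plk2) to 26.1% (Npas4) of it, where 12 free line means take some share of any gene's variance, and sex held at most 10.7% (Ptgs2).

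The extremes were spread over several lines. Fos was highest in Tbc1d8 female replicate 48 (168.3 CPM), Hrk male replicate 17 (157.6 CPM) and Zswim6 female replicate 50 (142.0 CPM). It was lowest in Hrk female replicate 19 (19.5 CPM) and in Dach1 female replicates 7 (22.2 CPM) and 6 (26.5 CPM). The line Hrk thus held both a top and a bottom animal. Of the 10 libraries with the most Fos, 10 were also among the top 10 for Nr4a1 and 8 each for Junb and Arc, while 1 was among the top 10 for Bdnf and 0 for Homer1. Of the 10 with the least Fos, 8 each were among the bottom 10 for Junb, Nr4a1, Ier2, Dusp1 and Arc. Bdnf picked other animals, with its highest values in Rgs9 female replicate 44 (58.0 CPM), Pcdh20 male replicate 32 (56.9 CPM) and Rasgef1a female replicate 40 (54.3 CPM), whose Fos levels were 77.7, 54.5 and 54.9 CPM.

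Lower levels in females passed the test for 5 of the 33 members, Npas4, Junb, Ptgs2, Nr4a1 and Fos, and the other 28 did not pass. The 5 stand beside 4.5% of all tested genes called lower in females, and 0 of 33 were called higher, beside 4.07%. The sign was negative for 30 of 33 members and for 49.8% of all genes, and the median log2 difference was -0.12 for the members and 0.00 for all genes. Members are correlated with each other, so these signs are not separate observations, and with the level of Fos in the model 18 of 32 were negative. At an unadjusted p under 0.05 there were 14 of 33 members and 22.6% of all genes. The difference is female minus male from edgeR's quasi-likelihood test with the line in the model, adjusted over all tested genes by Benjamini-Hochberg. Because tissue was bulk, fewer active cells and less RNA per cell cannot be told apart here.

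Npas4, the neuronal early factor, had lowest, median and highest values of 19.3, 34.2 and 92.3 CPM in females against 24.2, 42.1 and 104.3 CPM in males. Its log2 difference was -0.31 ± 0.08 (SE; adjusted p = 0.00788 by edgeR), and female means were lower in 12 of 13 lines. Junb, a JUN family partner of FOS, had 23.8, 71.7 and 171.8 CPM in females against 45.9, 90.1 and 154.1 CPM in males, a difference of -0.32 ± 0.09 (edgeR adjusted p = 0.0172). The lowest females lay well under the lowest male, while at the top the ranges overlapped fully. Fos itself had 19.5, 68.5 and 168.3 CPM in females against 37.2, 85.1 and 157.6 CPM in males (-0.31 ± 0.10, edgeR adjusted p = 0.0417, lower in females in 11 of 13 lines). Nr4a1, an orphan nuclear receptor, had medians of 238 CPM in females and 280.0 CPM in males (-0.25 ± 0.08, edgeR adjusted p = 0.0340). Ptgs2, the inducible cyclooxygenase, had 12.2, 16.9 and 37.03 CPM in females against 14.3, 20.5 and 33.8 CPM in males (-0.22 ± 0.06, edgeR adjusted p = 0.0178). In each of the 5 genes both sexes overlapped over most of their range.

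The members nearest to the threshold were Btg2 (-0.38 ± 0.13, edgeR adjusted p = 0.0540), Ier2 (-0.22 ± 0.08, adjusted p = 0.0864) and Dusp1 (-0.23 ± 0.09, adjusted p = 0.0872). Of the genes that moved least, Ier5 (0.01 ± 0.05), Homer1 (0.04 ± 0.06) and Dusp4 (0.05 ± 0.08) were the 3 with a positive sign, and Bdnf differed by -0.03 ± 0.06. The calls of Fos and Nr4a1 ended when few animals were left out. Leaving out the female and the male library with number 1, 4, 6, 7, 11 or 39 left 3 of the 5 calls, as did leaving out the line Arpp19, Ece2, Ppp1ca or Rgs9, and 2 calls were left without Dach1 or without Pcdh20. The call of Fos ended without 15 of the 52 numbers, with an adjusted p of at most 0.0739, and that of Ptgs2 ended with tissue scores in the model (-0.13, adjusted p = 0.135). Tissue scores are the means of log2 CPM of striatal, oligodendrocyte, choroid plexus and erythroid markers, the last with 1 tested gene. Without the 3 libraries that went against their sex labels, Fos had an adjusted p of 0.0561 and 4 members were called.

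Once the level of Fos was added to the model as a term, an alternative chosen after seeing the data, 0 of 32 members were called lower in females, beside 4.31% of all genes. Junb then differed by -0.06 ± 0.03 (edgeR adjusted p = 0.164) and Nr4a1 by -0.02 ± 0.03 (adjusted p = 0.681). Npas4 kept -0.16 ± 0.07 (adjusted p = 0.131) and Ptgs2 -0.17 ± 0.06 (adjusted p = 0.0969). At a given level of Fos, 2 members were called higher in females, beside 3.87% of all genes, Egr2 with 0.25 ± 0.06 (adjusted p = 0.00695) and Dusp6, which acts on ERK, with 0.07 ± 0.02 (adjusted p = 0.0440). Without the Fos term these 2 genes differed by -0.10 ± 0.13 and -0.03 ± 0.04, with no call. Fos was itself called lower in females, and both genes had slopes above 0 on Fos (1.13 for Egr2 and 0.31 for Dusp6). A term for Fos therefore moves their differences up, and the counts of 0 lower and 2 higher follow in part from it. The sex difference did not vary detectably between lines: 0 of 33 members passed the interaction test by edgeR, 0 had an unadjusted p under 0.05, and 0.0382% of all genes passed it.

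**Figure D2:**
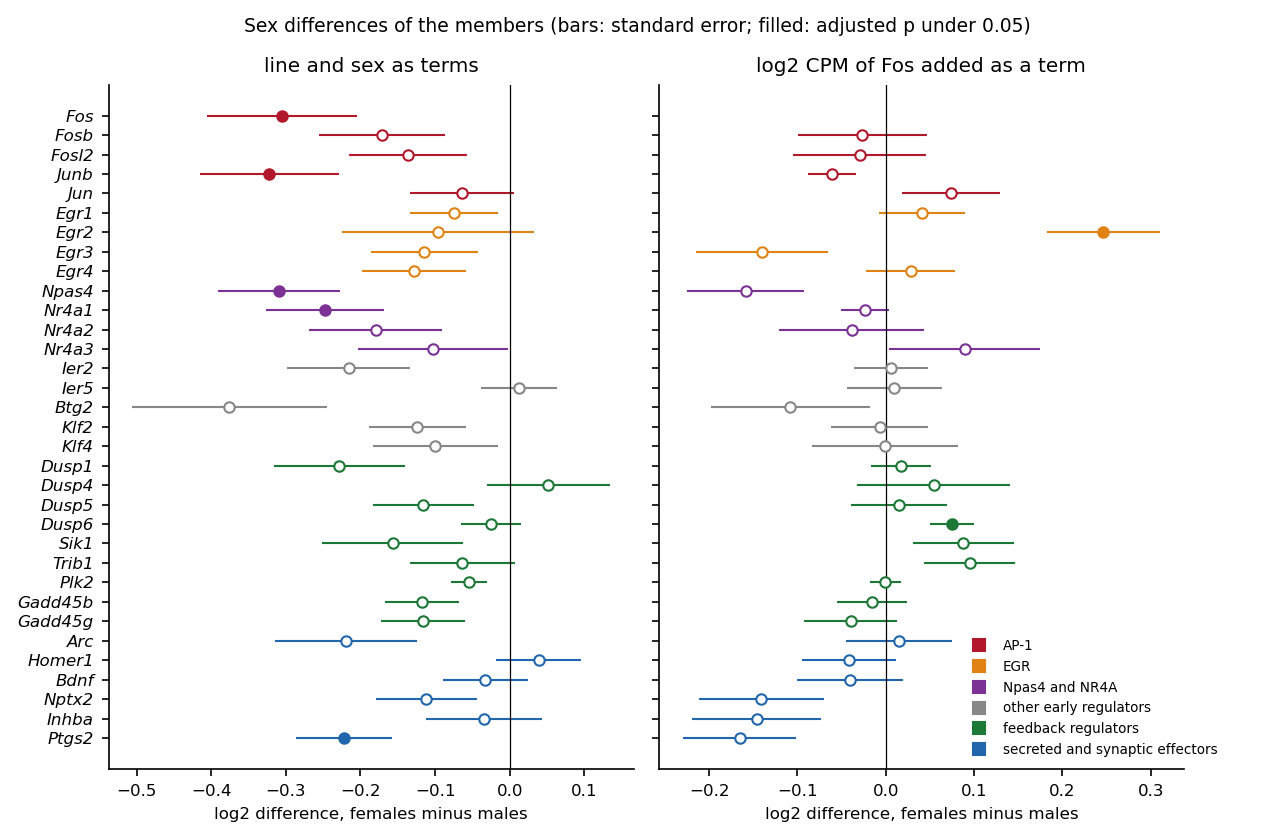
Log2 difference between females and males for each gene with its standard error, without (left panel) and with (right panel) the level of Fos in the model, coloured by role, with filled points at an adjusted p under 0.05. In the left panel nearly all points lie left of 0 and 5 are filled, and in the right panel the points gather around 0 with Egr2 and Dusp6 filled on the right.

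Between mice of the same line and sex, 25 of the other 32 members followed Fos. Their slope on log2 CPM of Fos was called above 0 in edgeR's test, which was so for 10.1% of all genes, and 2 members, Homer1 and Inhba, had slopes called below 0, beside 9.9% of all genes. The median slope was 0.39 over the 32 members and 0.00 over all genes. The members closest to Fos were Junb (Pearson's r 0.96, Spearman's rho 0.95), Nr4a1 (0.95, 0.94), Dusp1 (0.93, 0.94), Egr2 (0.89, 0.89) and Ier2 (0.88, 0.88), which held ranks 1 to 5 of 15722 genes by absolute r. Permutation p was 1e-05 for each, the smallest that 100000 permutations within line and sex can give, and 0.000347 for r and 0.000361 for rho after adjustment over 15722 genes. Without the 2 libraries farthest from the median of Fos, r was 0.96, 0.94, 0.93, 0.87 and 0.88 for the 5 genes in the same order. On the 96 libraries of plate 1 alone, r was 0.96, 0.95, 0.93, 0.89 and 0.89. All values come from the same libraries and share their depth and normalisation.

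The slopes also differed in size. A doubling of Fos went with a log2 change of 1.13 ± 0.06 in Egr2 (SE), 0.95 ± 0.09 in Btg2, 0.88 ± 0.03 in Junb and 0.82 ± 0.03 in Dusp1. The salt-inducible kinase Sik1 had 0.77 ± 0.05, Arc 0.76 ± 0.06, Nr4a1 0.73 ± 0.03 and Ier2 0.72 ± 0.04. Plk2 had 0.17 ± 0.02 and Ptgs2 0.18 ± 0.06, although both were called. Slopes of Homer1 (-0.24 ± 0.05, adjusted p = 0.000146) and Inhba, a subunit of activin (-0.33 ± 0.07, adjusted p = 0.000117), ran the other way. Among males alone neither was called (-0.26, adjusted p = 0.0862 and -0.34, adjusted p = 0.137). Counts are per gene and pool its transcript forms, so the slope of any single form of Homer1 was not tested. No slope was called for Egr3 (-0.08 ± 0.07), Nptx2 (-0.09 ± 0.06), Bdnf (-0.02 ± 0.06), Ier5 (-0.01 ± 0.05) or Dusp4 (0.01 ± 0.08).

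By role, the slope on Fos was called above 0 for 4 of 4 AP-1 partners, 3 of 4 EGR genes, 4 of 4 of Npas4 and the NR4A genes, 4 of 5 other early regulators and 8 of 9 feedback regulators. Of the 6 effectors, Arc and Ptgs2 were called above 0, Homer1 and Inhba below. Median slopes were 0.44 for AP-1, 0.42 for EGR, 0.53 for Npas4 with NR4A, 0.36 for the other early regulators, 0.31 for feedback regulators and -0.06 for effectors. The median r between pairs was 0.60 among the early transcription factors (105 pairs), 0.58 among the effectors (15 pairs) and 0.32 between an early factor and an effector (90 pairs), against 0.50 over all 528 pairs of members. These pair values are descriptions of the same libraries and were not tested.

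**Figure D3:**
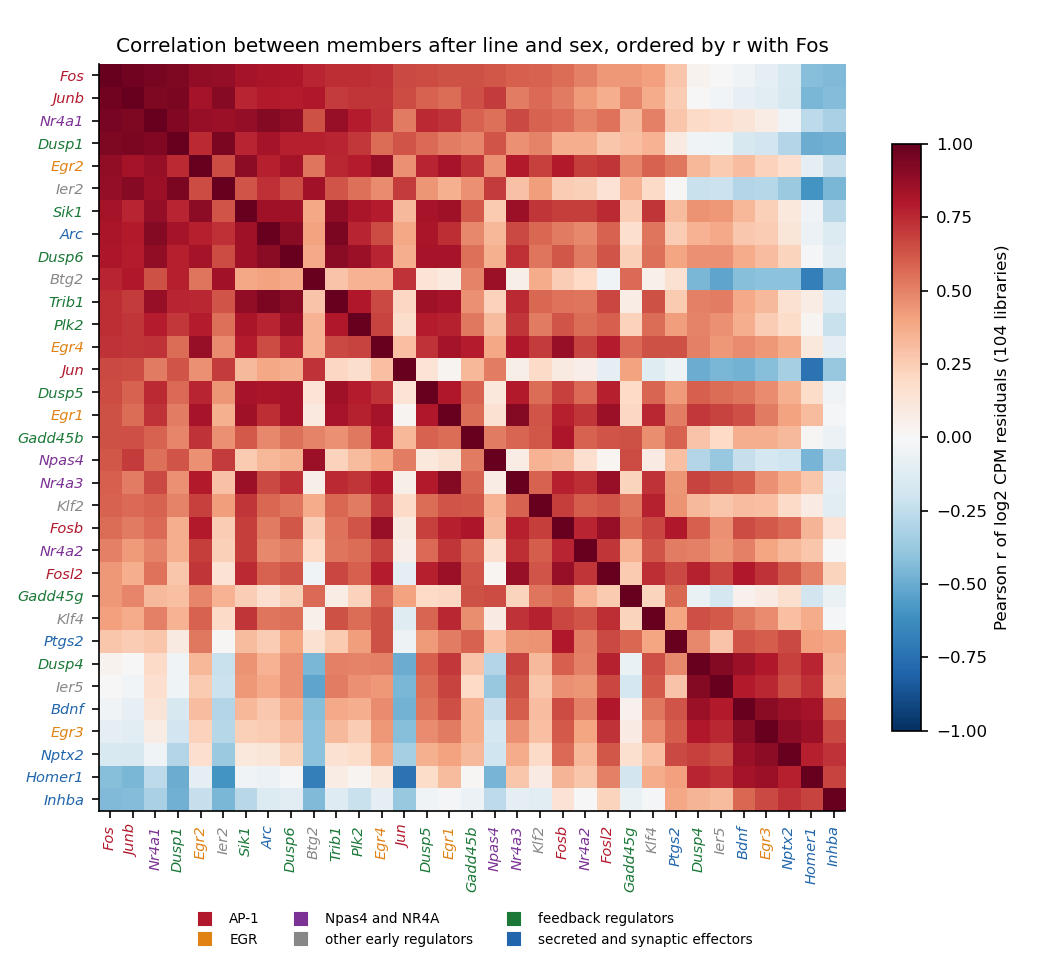
Pearson's r between the residuals of log2 CPM after line and sex for each pair of the 33 genes over all libraries, ordered by r with Fos, with names coloured by role. A block of high values runs from Fos through Arc and Sik1, and Egr3, Dusp4, Ier5, Bdnf, Nptx2 and Homer1 form another block at the far end with values near 0 or below against Fos, Junb and Btg2.

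The members without a call on Fos, other than Bdnf itself, had slopes above 0 on Bdnf. The slope on log2 CPM of Bdnf, a comparison chosen after Bdnf was seen not to follow Fos, was called above 0 for 23 of 32 members, beside 20.2% of all genes, and below 0 for 3 members, beside 22.7% of all genes. Egr3 (chr14:70077317-70082613, plus strand, GRCm38.p6) had a slope of 1.13 ± 0.05 (SE) and r of 0.91 (rho 0.90), the highest absolute r with Bdnf of all tested genes. Dusp4 followed with 1.28 ± 0.07 and r of 0.87 (rho 0.87), Nptx2 with 1.01 ± 0.06 and r of 0.86 (rho 0.85), Homer1 with 0.82 ± 0.05 and r of 0.83 (rho 0.83), Fosl2 with 1.12 ± 0.09 and r of 0.80 (rho 0.79), and Ier5 with 0.71 ± 0.05 and r of 0.79 (rho 0.78). Permutation p was 1e-05 for r and rho of each, with adjusted values of 9.5e-05 and 9.6e-05 over 15722 genes. Without the 2 libraries farthest from the median of Bdnf, r was 0.90, 0.84, 0.85, 0.82, 0.78 and 0.75 in that order. No relation was detected between Fos and Bdnf themselves (r -0.03, rho -0.06, permutation p adjusted over all genes 0.823 and 0.648).

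Set side by side, the slopes sorted the 31 remaining members into 5 sets. Above 0 on both were 17 genes, among them Egr1, Egr2, Egr4, Fosb, Fosl2, Nr4a2, Nr4a3, Arc and Sik1. Above 0 on Fos with no call on Bdnf were 5: Junb, Nr4a1, Npas4, Dusp1 and Gadd45g. Above 0 on Fos and below 0 on Bdnf were 3: Jun (-0.52 ± 0.11 on Bdnf), Ier2 (-0.43 ± 0.14) and Btg2 (-0.90 ± 0.21). Above 0 on Bdnf with no call on Fos were 4: Egr3, Dusp4, Ier5 and Nptx2. Homer1 and Inhba were above 0 on Bdnf and below 0 on Fos. Members of 1 family or role fell in different sets, as Egr3 and Egr2, Dusp4 and Dusp1, and Homer1 and Arc. Both slopes used the same libraries, and the sets rest on a threshold. In the females alone 16 members rather than 23 were called above 0 on Bdnf, beside 11.7% of all genes. Egr2, Arc and Sik1 were not called there. In the same fit 1 member rather than 3 was called below 0, beside 8.87% of all genes. Of 22 alternatives, the call of Arc on Bdnf ended in 6, and Npas4 was called below 0 in 6.

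**Figure D4:**
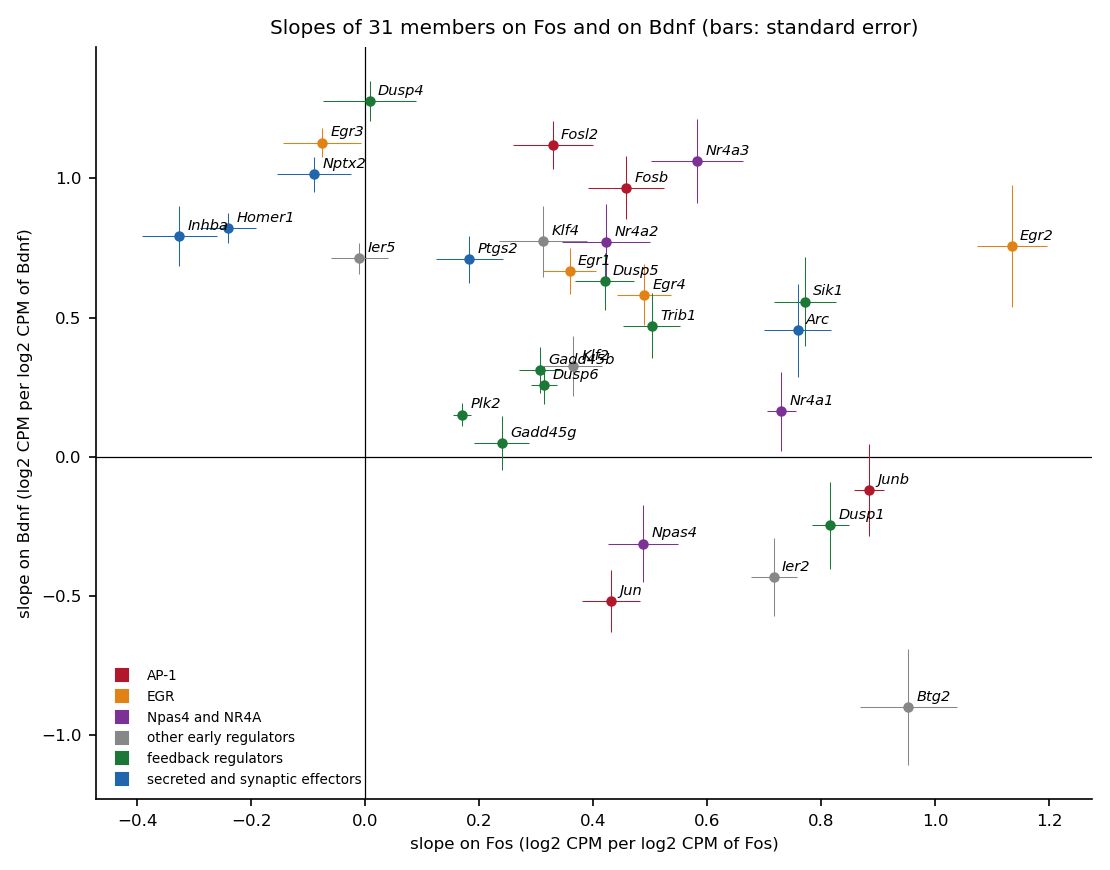
Slope on Fos (horizontal axis) and slope on Bdnf (vertical axis) of the 31 other genes, both in log2 CPM per log2 CPM with standard errors, coloured by role. Egr2 lies far right and above 0, Btg2 far right and lowest, and Dusp4, Egr3, Nptx2, Homer1 and Inhba lie high at or left of 0 on the horizontal axis.

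The animals with the most and the least Fos show these levels one by one. Tbc1d8 female replicate 48, Hrk male replicate 17 and Zswim6 female replicate 50, the 3 highest in Fos, had 60.1, 64.3 and 74.02 CPM of Egr2, 194, 228 and 220 CPM of Homer1 and 34.1, 53.97 and 47.2 CPM of Bdnf. Hrk female replicate 19 and Dach1 female replicates 7 and 6, the 3 lowest, had 6.62, 6.69 and 10.8 CPM of Egr2, 307.7, 249 and 306.6 CPM of Homer1 and 38.3, 31.8 and 46.03 CPM of Bdnf. Egr2 and Homer1 did not overlap between these animals, in opposite order, and Bdnf overlapped. The animals were picked by Fos, and Egr2 and Homer1 had slopes called on Fos in the same libraries, so their separation is no separate result. Other combinations occurred too, as in Hrk male replicate 17, high in both Fos and Bdnf, and in Hrk male replicate 19, low in Fos (38.6 CPM), Bdnf (23.1 CPM) and Homer1 (172.5 CPM).

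Lines differed in 2 of the 33 members by the F-test over 13 lines, Npas4 (F 3.95, edgeR adjusted p = 0.00184) and Btg2 (F 2.87, adjusted p = 0.0272), beside 9.61% of all genes. Members were thus called no more often than genes at large. Line medians of Npas4 were 61.4 CPM in Gsg1l and 52.9 CPM in Tbc1d8, and between 28.8 and 44.2 CPM in the other 11 lines. Line medians of Btg2 were 50.03 CPM in Gsg1l and 34.03 CPM in Tbc1d8, and between 16.5 CPM (Dach1) and 32.9 CPM (Hrk) elsewhere. Against the mean of the other 12 lines, 4 members were called higher in Tbc1d8, beside 5.66% of all genes, and 3 in Gsg1l, beside 4.86%. The other 11 lines had 0 called members in either direction, where 0.0208% of all genes were called higher and 0.0139% lower, at most 26 genes in a line, so those lines had few calls of any kind. The F-test of Btg2 missed the threshold without both libraries numbered 7, 8, 13, 16, 47 or 48 (adjusted p up to 0.126). It also missed it with tissue scores in the model (adjusted p = 0.0828), by limma-voom (0.176) and with the level of Fos as a term (0.0541), where Egr2 was called in its place (0.0354) and 9.67% of all genes were called.

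In Tbc1d8, Npas4 was at 25.4, 47.8, 58.0 and 92.3 CPM in female replicates 45 to 48 and at 41.7, 37.1, 87.7 and 104.3 CPM in male replicates 45 to 48, against 19.3 to 81.3 CPM in the other 12 lines. Its log2 difference from them was 0.62 ± 0.14 (SE; edgeR adjusted p = 0.000886). Btg2 was at 13.7, 13.998, 47.99 and 92.7 CPM in the females and 20.1, 14.7, 73.2 and 81.9 CPM in the males, against 7.62 to 68.7 CPM elsewhere (0.77 ± 0.22, adjusted p = 0.0106). Replicates 47 and 48 of both sexes were high and 45 and 46 were not, so the line overlapped the others and was itself divided. Nptx2 showed another order, with 57.6, 92.8, 53.1 and 62.6 CPM in the females and 107.0, 91.7, 60.9 and 52.9 CPM in the males, against 29.8 to 94.6 CPM elsewhere (0.41 ± 0.12, adjusted p = 0.0139). Here female replicate 46 and male replicates 45 and 46 were the high ones. Gadd45g, a stress-induced growth arrest gene, was at 4.86 to 10.8 CPM in Tbc1d8 and 4.05 to 10.7 CPM elsewhere (0.31 ± 0.10, adjusted p = 0.0282). Without both libraries numbered 48, Npas4 differed by 0.30 (adjusted p = 0.253), Btg2 by 0.20 (adjusted p = 0.707) and Gadd45g by 0.16 (adjusted p = 0.449), and 1 member was called. Without both numbered 47, Btg2 differed by 0.61 (adjusted p = 0.145) and Gadd45g by 0.27 (adjusted p = 0.158). Nptx2 differed by 0.35 (adjusted p = 0.103) without both numbered 45 and by 0.27 (adjusted p = 0.240) without both numbered 46. With tissue scores in the model Npas4 and Btg2 were the members called, beside 4.28% of all genes, while Nptx2 had 0.20 (adjusted p = 0.244) and Gadd45g had 0.26 (adjusted p = 0.0930). With the level of Fos as a term Btg2 differed by 0.28 (adjusted p = 0.249) and Gadd45g by 0.22 (adjusted p = 0.0945), and by limma-voom Btg2 differed by 0.45 (adjusted p = 0.197).

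In Gsg1l, Npas4 was at 63.1, 59.6, 31.1 and 68.4 CPM in female replicates 13 to 16 and 55.5, 38.7, 72.8 and 81.3 CPM in male replicates 13 to 16, against 19.3 to 104.3 CPM elsewhere (0.55 ± 0.14, edgeR adjusted p = 0.00583). Btg2 was at 51.2, 55.3, 20.7 and 48.8 CPM in the females and 32.98, 21.6, 53.7 and 58.4 CPM in the males (0.71 ± 0.22, adjusted p = 0.0248). Jun was at 59.8, 37.9, 39.5 and 45.02 CPM in the females and 43.8, 27.3, 45.3 and 44.9 CPM in the males, against 18.9 to 60.8 CPM elsewhere (0.40 ± 0.12, adjusted p = 0.0249). Female replicate 15 and male replicate 14 were lowest or nearly so in both Npas4 and Btg2. Without both libraries numbered 13, or both numbered 16, 0 members were called in this line, with Npas4 at 0.54 (adjusted p = 0.0522) and 0.41 (adjusted p = 0.115). Btg2 then had adjusted p of 0.120 and 0.156 and Jun of 0.310 and 0.0951, and Jun had 0.0668 without both numbered 15. Scores of 4 tissue marker lists in the model also left 0 called higher in Gsg1l, beside 3.58% of all genes, with Npas4 at 0.42 (adjusted p = 0.0597), and Bdnf was then called lower (-0.32, adjusted p = 0.0370), beside 4.48% of all genes. With the level of Fos as a term Npas4 was at 0.34 (adjusted p = 0.0481), Btg2 at 0.35 (adjusted p = 0.152) and Jun at 0.22 (adjusted p = 0.160). The 4 lists do not include the markers of excitatory neurons. The summed level of those markers was 6974 to 7841 CPM in Tbc1d8 and 6698 to 7648 CPM in Gsg1l. In the other 11 lines it was 6459 to 7480 CPM. The part of tissue make-up in the line values was not tested beyond the fit with tissue scores.

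**Figure D5:**
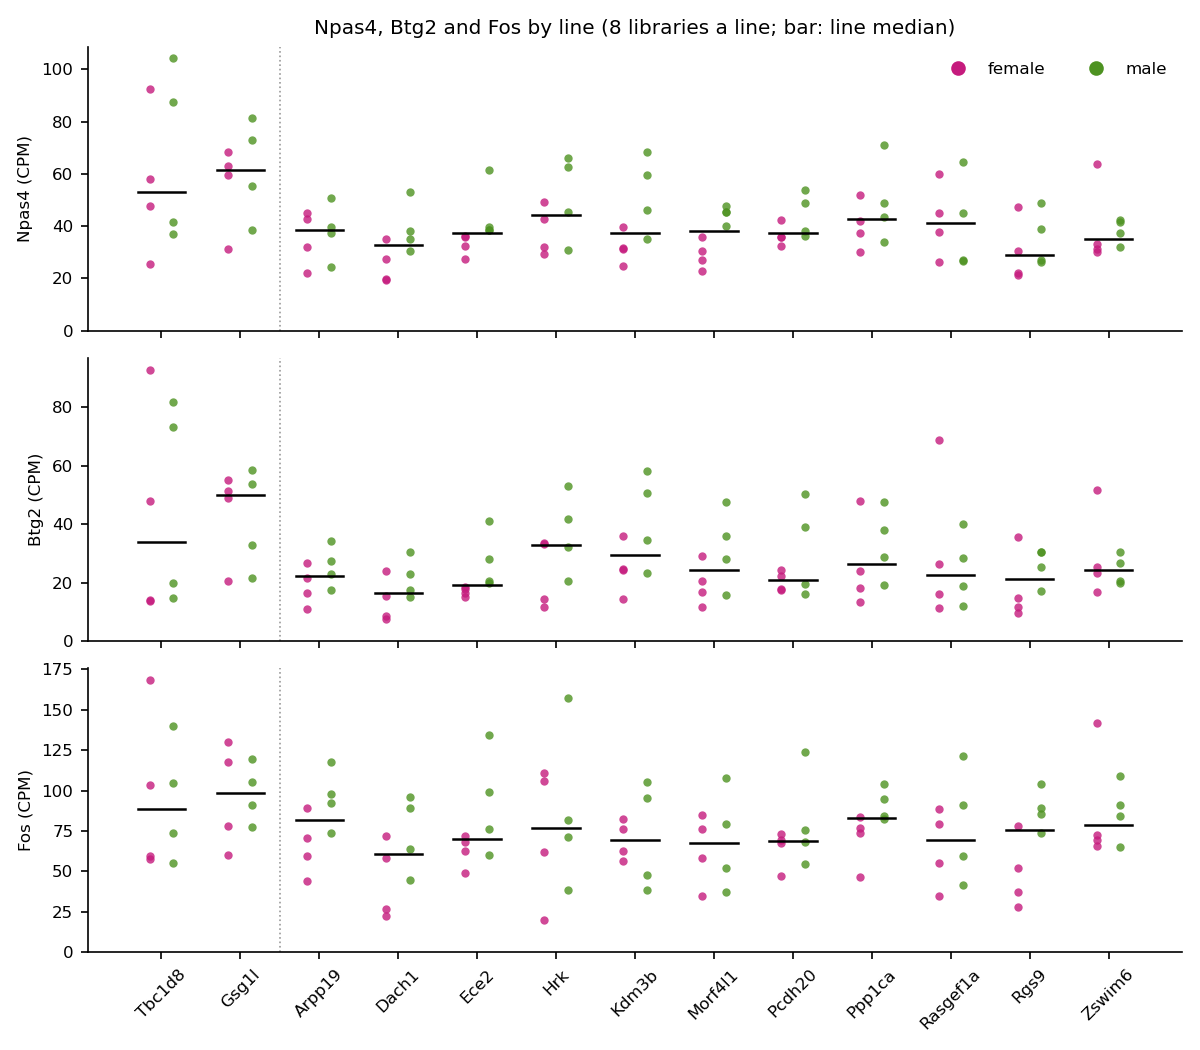
Npas4, Btg2 and Fos in CPM by line, 1 point a library with females left and males right, a bar at the line median, and Tbc1d8 and Gsg1l left of the dotted line. The Npas4 medians of Tbc1d8 (52.9 CPM) and Gsg1l (61.4 CPM) lie above all others, with the Tbc1d8 animals split into high and low ones, and the line medians of Fos lie between 60.9 CPM (Dach1) and 98.2 CPM (Gsg1l).

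The remaining lines differed in sign more than in calls. Kdm3b, which holds the shallowest library, had the lowest line median for 16 of 33 members, and 3 of its 33 log2 differences were positive (median -0.23). Morf4l1 had 1 positive of 33 (median -0.22), and Dach1 had 8 (median -0.11). The lowest adjusted p was 0.223 in Kdm3b, for Egr3 (224 CPM median against 304.7 CPM in the other 12 lines, -0.44 ± 0.14), and 0.392 in Morf4l1, for Gadd45b (10.6 against 11.96 CPM, -0.22 ± 0.09). Arpp19 had 29 positive of 33 with a median of 0.09, and Tbc1d8 26 with a median of 0.17. In Gsg1l, 12 members had their highest line median, while Bdnf had its lowest there (30.1 CPM, against 44.9 CPM in Ece2, its highest). Members are correlated with each other, so counts of signs within a line do not stand for that many separate observations.

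Plate and animal names were looked at beside these results. The 8 libraries of plate 2 were higher than the 96 of plate 1 in 33 of 33 members by sign, 14 of them at an unadjusted p under 0.05 (12.5% of all genes), but 0 passed the adjusted test, beside 0.242% of all genes. The closest was Nptx2, with a mean of 77.0 CPM on plate 2 and 54.1 CPM on plate 1 (0.44 ± 0.12, edgeR adjusted p = 0.0804). On plate 1 alone, 7 members were called lower in females (3.98% of all genes), with Btg2 and Gadd45b added. There, Npas4, Btg2 and Gadd45b were called higher in Tbc1d8 (3.1% of all genes), with adjusted p of 0.0595 for Gadd45g and 0.0560 for Nptx2. In Gsg1l, Npas4 and Jun were called higher (4.19% of all genes), and Btg2 had an adjusted p of 0.0538. Library names hold a number whose meaning the labels do not give, and 18 pairs of the same line and sex shared it. Such pairs were closer than the other 138 pairs in 28 of 33 members, as in Npas4 with a median absolute log2 difference of 0.17 against 0.44, Btg2 with 0.36 against 0.70 and Fos with 0.41 against 0.52. The edgeR tests, their SEs and the permutations take libraries as independent and do not allow for this likeness. Dach1 female replicates 6 and 7, among the lowest in Fos, shared the number. So did Tbc1d8 male replicates 45 and 46, both high in Nptx2. A limma-voom fit with that number as a random block within a line, chosen after seeing the data, gave an estimated correlation of 0.215. It called 5 members lower in females (3.68% of all genes) without Fos (-0.31, adjusted p = 0.0549), 1 between lines (Npas4, 7.66% of all genes), 3 higher in Tbc1d8 (4.95%) without Btg2 (0.52, adjusted p = 0.148) and 3 higher in Gsg1l (4.62%). Slopes on Fos were called above 0 for 25 members (9.54%) and below 0 for 2 (9.04%), and slopes on Bdnf above 0 for 23 (19.9%) and below 0 for 4 (22.3%).

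Other genes of the pathway gave a wider frame. Of 29 regulators upstream of these genes, 4 had a slope on Fos called above 0 and 5 below, beside 10.1% and 9.9% of all genes, so the counts are close to the background, with small slopes such as 0.08 ± 0.02 for Mef2c and -0.09 ± 0.02 for Hdac4. Mapk3, which encodes the kinase ERK1, was called lower in females (95.6 against 105 CPM in mean, -0.14 ± 0.03, edgeR adjusted p = 6.99e-05), higher in Tbc1d8 (0.32) and in Gsg1l (0.29), and above 0 on Fos (0.09 ± 0.02). Rps6ka5, the histone kinase MSK1, was also lower in females (-0.12 ± 0.02, adjusted p = 0.000366), and 0 of the 29 were higher. Mapk3 and Rps6ka5 were the 2 of the 29 called lower, beside 4.5% of all genes lower and 4.07% higher. In Tbc1d8, 4 of the 29 were called higher and 2 lower, and in Gsg1l 3 were higher and 0 lower. Of all genes, 5.66% were called higher in Tbc1d8 and 4.86% in Gsg1l. Of 34 other genes known to be induced by activity, 17 had a slope on Fos called above 0 and 2 below, led by Ccn1 (Cyr61 in the counts, 1.12 ± 0.08), Arl4d (0.39 ± 0.03), Tiparp (0.56 ± 0.04) and Csrnp1 (0.46 ± 0.04). In the same list Mir22hg was the 1 gene called lower in females (27.2 against 29.5 CPM in mean, -0.11 ± 0.02), and 0 were higher. Of all genes, 4.5% were called lower and 4.07% higher, so the list did not exceed the background in sex calls. The median slope of the 34 genes on Fos was 0.06, against 0.00 for all genes.

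Of the 20 genes most like Fos by absolute r, 8 were members. The 10 non-members with the highest absolute r were Pnrc1 (0.83), Ccn1 (0.82), Arl4d (0.82), Adrb1 (0.82), Erf (0.81), Pvr (0.80), Chrm4 (0.79), Csrnp1 (0.79), Apold1 (0.79) and Tiparp (0.78), each over all libraries and with Spearman's rho between 0.78 and 0.84. Of the 20 genes most like Bdnf, 4 were members, and the first non-members, named after their values were seen, were Cdkn1a (0.89), Pcsk1 (0.89), Dnajb5 (0.88), Pdp1 (0.88) and Irs2 (0.87). Pcsk1 encodes a convertase that cuts neuropeptide precursors and Irs2 an adaptor of the insulin receptor. Permutation p was 1e-05 for each of these, the smallest possible.

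Marker lists of other cells and states were set against Fos and Bdnf in 28 relations. Fos rose with the mean of 10 circadian clock genes (r 0.42, rho 0.40, permutation p = 0.00016, adjusted p = 0.00149), a list that includes Per1, which activity also induces and whose own slope on Fos was 0.45 ± 0.04. Of the 10, 3 had a slope called above 0 and 2 below, with a median slope of -0.01. Among the other clock genes, slopes on Fos were 0.41 ± 0.05 for Ciart, 0.16 ± 0.03 for Nr1d1 and -0.18 ± 0.02 for Npas2. The mean of 8 striatal markers was lower where Fos was higher (r -0.29, rho -0.29, adjusted p = 0.0158), with 2 of the 8 slopes on Fos called below 0, 1 above and a median slope of -0.01. Their summed level was 241 to 332 CPM in females and 252 to 353 CPM in males. Bdnf rose with 8 glucocorticoid-responsive genes (r 0.51, rho 0.52, permutation p = 1e-05, adjusted p = 0.00028), with r of 0.26 among females and 0.72 among males, a difference that was not tested. Bdnf also rose with 6 astrocyte markers (r 0.43, rho 0.47, adjusted p = 0.00056), 8 striatal markers (r 0.35, rho 0.37, adjusted p = 0.0286) and the clock list (r 0.28, rho 0.28, adjusted p = 0.0351). No relation of either gene with the library total was detected (r 0.03 for Fos and 0.06 for Bdnf, adjusted p 0.711 and 0.587). Without the 2 libraries farthest from the median of each list, r was 0.40 for Fos with the clock list, -0.27 for Fos with the striatal list and 0.50 for Bdnf with the glucocorticoid list. On plate 1 alone, these were 0.44, -0.31 and 0.49. The part of these lists in the results above was not tested, except that with tissue scores in the model 7 members were called lower in females, beside 5.53% of all genes.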

How the data were processed

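Cortex RNA-seq of 52 females and 52 males was used as deposited. Reads had been processed with STAR 2.7.3a and HTSeq 0.10.0 on GRCm38 (mm10), per the submitters' processing notes, and the strand setting of the counting is not given in the sources used here, so antisense reads cannot be separated from a gene's own. The deposited RefSeq table holds raw read counts per gene, and the authors' second RefSeq table holds FPKM, used here for levels between genes. The deposited Ensembl counts were an alternative, with 19563 complete gene rows and 32 of the members. In R 4.3.3, counts were filtered with filterByExpr by line and sex (15723 of 24060 genes kept), scaled by TMM and fitted with edgeR 4.0.16 (quasi-likelihood) with line and sex as terms. P-values were adjusted over all tested genes by Benjamini-Hochberg at 0.05. CPM for slopes and residuals are log2 with a prior count of 2, and correlations were computed on residuals after line and sex, with 100000 permutations of libraries within line and sex (two-sided). limma 3.58.1 and DESeq2 1.42.0 gave alternatives. The self-tests recovered the simulated slopes and line differences. They drew libraries independently, at the spread usual for a gene's level. The simulated line difference was larger than any called in a member, and the term used for slopes carried no counting noise. Sex differences and their variation between lines were simulated too, and their recovery is not given here. The wider spread of the members, their correlation and the likeness of libraries sharing a name number were not simulated.

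The members and lists were chosen with earlier results of these data known, so no pattern already seen in them counts as independent support. The genes named are all 33 members, the 10 non-members with the highest absolute r with Fos and, of each fixed list of other genes, up to 4 with the smallest p, and, chosen after their values were seen, the 5 non-members most like Bdnf. Added after seeing the data were the level of Fos as a term every slope on Bdnf and the limma-voom fit with the number in the library names as a block. Replicate numbers are shared between females and males of a line, but same-numbered libraries did not deviate together (r -0.24 to 0.24, median 0.02, 8 of 52 pairs over 0.1), so they were not treated as pairs. P-values measure the spread between these animals. Every member was counted in every library, with 18 reads (Klf4) as the lowest count.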

Additional observations from a re-analysis of the deposited data

Results flagged for a closer look

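Among the 8 Pcdh20 libraries, male replicate 30 stood apart in Fos with 124 CPM, while the nearest other library of the line had 75.5 CPM. The gap is 0.632 of the range of the 8 libraries. In all, 20 groups of 8 libraries were examined in this way, and this measure sets about 1 group in 20 apart by chance.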

How the results depend on the processing

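The number of members called lower in females was 5, and it was 4 to 7 with other size factors, filters, Ensembl counts, DESeq2, limma on FPKM, plate 1 alone or tissue scores. It was 0 with the level of Fos as a term, which called 2 members higher, and 3 without the line Arpp19, Ece2, Ppp1ca or Rgs9 and 2 without Dach1 or Pcdh20. With a replicate block, whose numbers share no more than a label, it was 8, with Btg2, Ier2 and Dusp1 added. Leaving out 1 replicate number at a time gave 3 to 6 lower and 0 higher in females, 1 to 3 members called between lines, 1 to 4 higher in Tbc1d8, 0 to 4 higher and 0 to 1 lower in Gsg1l. Limma-voom called 1 member between lines, also with the name number as a block. With tissue scores 2 were higher in Tbc1d8 and 0 in Gsg1l, with the Fos term 2 and 1, and plate 1 alone or tissue scores called 1 lower in Gsg1l (Bdnf) where the model without them called 0. Slopes called below 0 on Fos numbered 0 in males alone. With Npas4 in place of Fos, 17 members other than Fos were above 0 and 4 below, beside 10.1% and 10.2% of all genes. Fos itself was also called above 0 on Npas4 (0.79). Of the members above 0 on Fos, 7 were not called on Npas4 (Egr1 at 0.11, adjusted p = 0.300, Nr4a3 at 0.13, Fosl2 at 0.03, Nr4a2, Klf4, Dusp5 and Trib1), while Dusp4 had -0.29 against 0.01 on Fos. In females alone, slopes on Bdnf numbered 16 above 0 and 1 below. Over all alternatives to the counts of calls, 595 stayed within 1.5 times the first count, 30 were lower and 6 higher. The 595 include each count of 0 that stayed 0. Many of the alternatives left out only the female and the male library of 1 number, so the 595 is no measure of stability. The cause of the changes was not tested beyond fewer samples where libraries were left out.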
